A study of Mus musculus with 28 samples.

Results

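Mitochondrial ribosomal proteins are encoded in the nucleus, made in the cytosol and imported into mitochondria, where they join 2 mitochondrial rRNAs to form a large and a small subunit. The finished ribosome translates the few mRNAs of mitochondrial DNA, all of which encode subunits of the oxidative phosphorylation complexes, so respiration depends on it. In the B lineage, the step to the antibody-secreting plasma cell is accompanied by a rebuilding of metabolism along with the secretory machinery, and MYC is a known activator of genes for mitochondrial biogenesis.

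The genes described here are all those whose symbol starts with Mrpl (large subunit names) or Mrps (small subunit names) followed by digits. The array annotation held 76 of them among 19057 genes, with 132 probes. Each gene was represented by its brightest probe, and 74 of the 76, among 11804 genes in all, were detected on at least 3 of the 28 arrays and were tested. Mrpl19 was detected on 1 array and Mrpl32 on 0, and neither was tested. By the known structure of the mammalian mitochondrial ribosome, 48 of the tested genes encode large and 26 small subunit proteins. Mrps18a and Mrps30, despite their names, are among those 48. A bacterial homologue is known for 46 of the 74 proteins, and 28 have none. The 74 genes lie on 17 chromosomes, 11 of them on chromosome 11 and 0 on X.

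Illumina arrays had been hybridised with RNA from mouse plasma cell tumors, malignant growths of antibody-secreting cells, and from normal B cells. The 14 adoptive-transfer tumors were whole oil granuloma tissue of C.iMyc/IL-6 mice on the BALB/c background, with labelled ages of 105 to 158 days. These ages may count from transfer. The 11 spontaneous tumors were whole lymph node tissue of the same strain at 40 to 162 days. The strain label of all tumors thus names both the iMyc allele, which places an additional Myc gene in the germline, and the IL-6 allele. Their presence in the tumor cells was not measured. The 3 normal samples were splenocytes labelled as normal B cells, taken at 90 days from animals for which BALB/c is the label's sole strain entry. The promoter that drives IL-6, and the host cells that tumor tissue retained, are not given in the sources used here. Tissue, strain, cell purity and stage of the B lineage thus differ together between tumors and normal B cells. Tissue also differs between the kinds of tumor, and in both cases these cannot be told apart. The labels do not say whether samples came from separate animals, so a p-value here covers no more than sample-to-sample spread. Because whole tumors were measured, fewer cells of a type and less RNA per cell cannot be told apart.

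Levels are log2 intensities after background correction and quantile normalisation, and a difference of 1 log2 unit is a doubling. All genes were tested in 1 limma model, and a gene was called at a Benjamini-Hochberg adjusted p under 0.05 over the 11804 genes. Probes detected per array numbered 11544 to 16827 in adoptive-transfer tumors, 14472 to 16756 in spontaneous tumors and 15633 to 16866 in normal B cells. Of the 7 tested mature B cell markers all 7 were lower in both kinds of tumor, and of 8 plasma cell markers 6 were higher in adoptive-transfer and 5 in spontaneous tumors. Markers of other cells were also measured, in the tumors and in the normal samples. Mean fibroblast and matrix marker levels were 6.07 to 9.27 in adoptive-transfer tumors, 6.94 to 8.60 in spontaneous tumors and 4.77 to 4.84 in normal B cells, where 9 of the 10 markers were detected on no array. Of these 10 markers 8 were called higher in adoptive-transfer tumors (9 without tumor 5, which is described next) and 7 in spontaneous tumors. Of 9 endothelial markers, 4 were called higher in adoptive-transfer and 7 in spontaneous tumors, and 1 was called lower in each. Their means were 5.29 to 8.85, 7.44 to 7.96 and 5.26 to 5.50 in the same order of groups. Macrophage markers averaged 7.76 to 11.01, 8.17 to 9.31 and 8.07 to 8.36. Of these 10 markers, 3 were called higher in each kind of tumor and 1 lower in spontaneous tumors. T cell markers averaged 4.68 to 8.90, 4.49 to 7.72 and 6.64 to 7.29, and neutrophil markers 4.92 to 9.75, 5.52 to 8.05 and 6.32 to 6.92. Erythroid markers averaged 6.69 to 12.73, 7.67 to 10.29 and 7.67 to 8.07. Of the T cell, neutrophil and erythroid markers 0 were called. The proliferation genes, 5 of 9 called higher in each kind of tumor, averaged 7.27 to 9.42, 8.53 to 9.73 and 7.14 to 7.34. The part of these cells and of proliferation in the results below was not tested.

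Adoptive-transfer tumor 5 stood apart from the other 13. Its mean level over the 74 genes was 8.11, against 9.18 to 9.66 in the other adoptive-transfer tumors, 9.04 to 9.35 in spontaneous tumors and 8.28 to 8.35 in normal B cells. It had the lowest of the 14 values in 54 of the 74 genes (73.0%), against 22.3% of all tested genes. Its plasma cell markers averaged 8.21, against 9.05 to 10.79 in the other 13, and its proliferation genes 7.27, against 7.47 to 9.42. T cell, neutrophil and erythroid markers averaged 8.90, 9.75 and 12.73 there, above highest means of 7.91, 8.37 and 11.12 in the other 13. The numbers of the 74 genes called in the group comparisons are given below with and without it, as are some other counts that it moved. All arrays share a single estimate of spread, so it also bears on calls in spontaneous tumors against normal B cells.

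**Figure D1:**
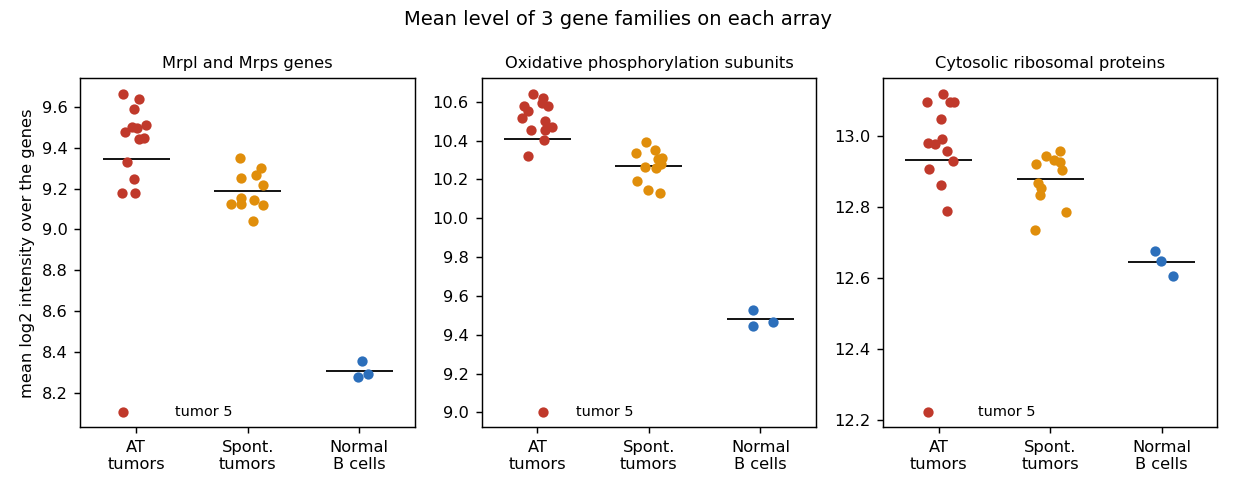
Mean log2 intensity of the 74 Mrpl and Mrps genes, 73 oxidative phosphorylation subunits and 55 cytosolic ribosomal proteins on each array, with 14 adoptive-transfer (AT) tumors, 11 spontaneous tumors and 3 normal B cell samples; each point is an array and the line is the group mean. Adoptive-transfer tumor 5, at 8.11 in the left panel, lies below the normal samples, and the other tumors lie between 9.04 and 9.66. The vertical axes differ between panels.

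Sequence upstream of the genes was examined next, since these genes are scattered over the genome and their promoters are the place where known activators of mitochondrial genes bind. RefSeq windows of GRCm38.p6, 250 bases before to 50 after a transcription start, were at hand for 66 of the 74 genes (72 windows). Upstream stretches of 120 bases, ending just before the start, are printed for 4 genes among those with the largest differences in the comparisons below and for 3 genes with no call. Capitals mark matches to the searched motifs on either strand. The motifs were CACGTG (the E-box bound by MYC), GCGCA, any base and GCGC in a row (bound by NRF1), CCGGAAG (bound by ETS factors such as GABPA), AAGATGG (bound by YY1) and TATAAA (the TATA box).
Mrpl17 (chr7:105811088-105811207, minus strand): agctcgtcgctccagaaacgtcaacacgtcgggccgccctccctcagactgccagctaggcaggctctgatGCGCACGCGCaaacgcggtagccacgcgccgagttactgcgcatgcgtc
Mrpl34 (chr8:71464806-71464925, plus strand): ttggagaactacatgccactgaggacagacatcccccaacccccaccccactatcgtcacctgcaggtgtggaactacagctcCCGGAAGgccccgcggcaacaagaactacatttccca
Mrpl12 (chr11:120484517-120484636, plus strand): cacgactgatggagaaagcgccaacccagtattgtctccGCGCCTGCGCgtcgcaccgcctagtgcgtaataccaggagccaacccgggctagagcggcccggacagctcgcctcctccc
Mrpl20 (chr4:155802758-155802877, plus strand): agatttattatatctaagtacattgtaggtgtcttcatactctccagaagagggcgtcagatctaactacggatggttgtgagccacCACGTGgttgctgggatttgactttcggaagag
Mrpl57 (chr14:57826119-57826238, plus strand): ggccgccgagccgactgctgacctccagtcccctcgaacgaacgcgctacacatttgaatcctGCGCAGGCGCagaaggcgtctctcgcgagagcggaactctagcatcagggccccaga
Mrpl45 (chr11:97315596-97315715, plus strand): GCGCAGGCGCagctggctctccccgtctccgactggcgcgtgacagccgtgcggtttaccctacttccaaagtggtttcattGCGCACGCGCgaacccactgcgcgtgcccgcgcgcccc
Mrpl51 (chr6:125192080-125192199, plus strand): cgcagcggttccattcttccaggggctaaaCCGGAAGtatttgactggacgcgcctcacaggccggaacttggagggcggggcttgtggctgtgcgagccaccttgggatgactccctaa

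The first 4 genes were higher in both kinds of tumor and the last 3 were not called, and the NRF1 and ETS motifs occurred in both sets. In the 300-base windows the ETS motif was found in 26 of 66 genes (39.4%), against 18.6% of the 9505 tested genes with a window and 9.93% of all 27025 genes with one. The NRF1 motif was found in 12 genes (18.2%, against 10.4% and 5.19%) and the YY1 motif in 12 (18.2%, against 8.21% and 7.28%). The MYC E-box was found in 5 genes (7.58%, against 11.3% and 8.09%), and the TATA box in 5 (7.58%, against 10.3% and 15.7%). No matches of different motifs overlapped in the 72 windows, and 19 of the 66 genes held none of the 5 motifs. Set against the calls below, the ETS motif was present in 18 of the 43 genes with a window that were called higher in adoptive-transfer tumors and in 8 of the other 23, the E-box in 4 and 1, the YY1 motif in 7 and 5, and the TATA box in 5 and 0. The NRF1 motif went the other way, with 5 of the 43 and 7 of the 23. For the 36 genes called higher in spontaneous tumors and the other 30, the counts were 16 and 10 for the ETS motif, 2 and 3 for the E-box, 6 and 6 for both NRF1 and YY1, and 5 and 0 for the TATA box. None of these splits was tested. A match is a description of the letters, and binding was not measured.

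Of the 66 genes, 22 (33.3%) had a window overlapping that of another gene on the opposite strand, head to head, against 16.2% of the tested genes. Mrpl46 and Mrps11, which encode a large and a small subunit protein, face each other across 42 bases. Mrpl43 faces Twnk, which encodes the mitochondrial DNA helicase, across 116 bases, and Mrpl47 faces Ndufb5, a complex I subunit gene, across 308 bases. Of the 15 tested partners outside the family, 6 were called higher and 1 lower in adoptive-transfer tumors than in normal B cells, where 19.8% of all tested genes were called higher and 16.7% lower. In spontaneous tumors 3 of the 15 were higher and 2 lower, near the 18.5% and 17.9% of all tested genes. Helq, the DNA helicase gene that faces Mrps18c, fell by 1.24 in adoptive-transfer tumors (adjusted p = 4.86e-05), while Mrps18c rose by 1.11 (adjusted p = 0.000507). Ska3, a gene of chromosome segregation that faces Mrpl57, rose by 1.30 (adjusted p = 0.0263), and Mrpl57 was not called.

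Adoptive-transfer tumors were compared first with normal B cells, which stand at another stage of the B lineage than plasma cell tumors. Malignancy and stage cannot be told apart here. Of the 74 genes, 50 rose and 0 fell (limma, 14 adoptive-transfer tumors against 3 normal samples), where 36.5% of all tested genes were called, 19.8% higher and 16.7% lower. The differences reached at least 1 log2 unit in 39 of the 50 genes called, where 14.5% of all tested genes were called higher by that much. The median difference was 1.04 over the 74 genes and 0.10 over all tested genes. It ranged from -0.25 to 2.36, and 70 of the 74 were positive, against 57.5% of all tested genes.

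Counts depended on single arrays and on scaling. Without adoptive-transfer tumor 5, 62 of the 74 genes were called higher, which included the 50, and the median was 1.15. Of all tested genes 23.3% were then called higher, against 19.8% with all arrays. Every tumor lay above every normal sample in 19 of the 74 genes, where 9.74% of all tested genes did so, and in 50 genes without tumor 5 (all tested genes 15.2%). With arrays scaled to a common median, the median of all genes moved to -0.08. Then 23 of the 74 were called higher and 0 lower (median 0.63), where 11.9% of all tested genes were called higher. Of all called genes 33.3% were higher, against 54.3% here. Eif2s3y, a Y-linked gene, was at 4.40 to 4.82 in adoptive-transfer tumors, 4.34 to 8.58 in spontaneous tumors and 8.93 to 9.04 in normal B cells. With its level as a covariate, 25 genes were called higher with a median of 0.95, where 8.55% of all tested genes were called higher. Its level separates adoptive-transfer tumors fully from normal B cells, so this fit can hardly tell the covariate from the group. The median SE of the 74 genes rose from 0.28 to 0.44. The labels do not give the sex of the animals.

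**Figure D2:**
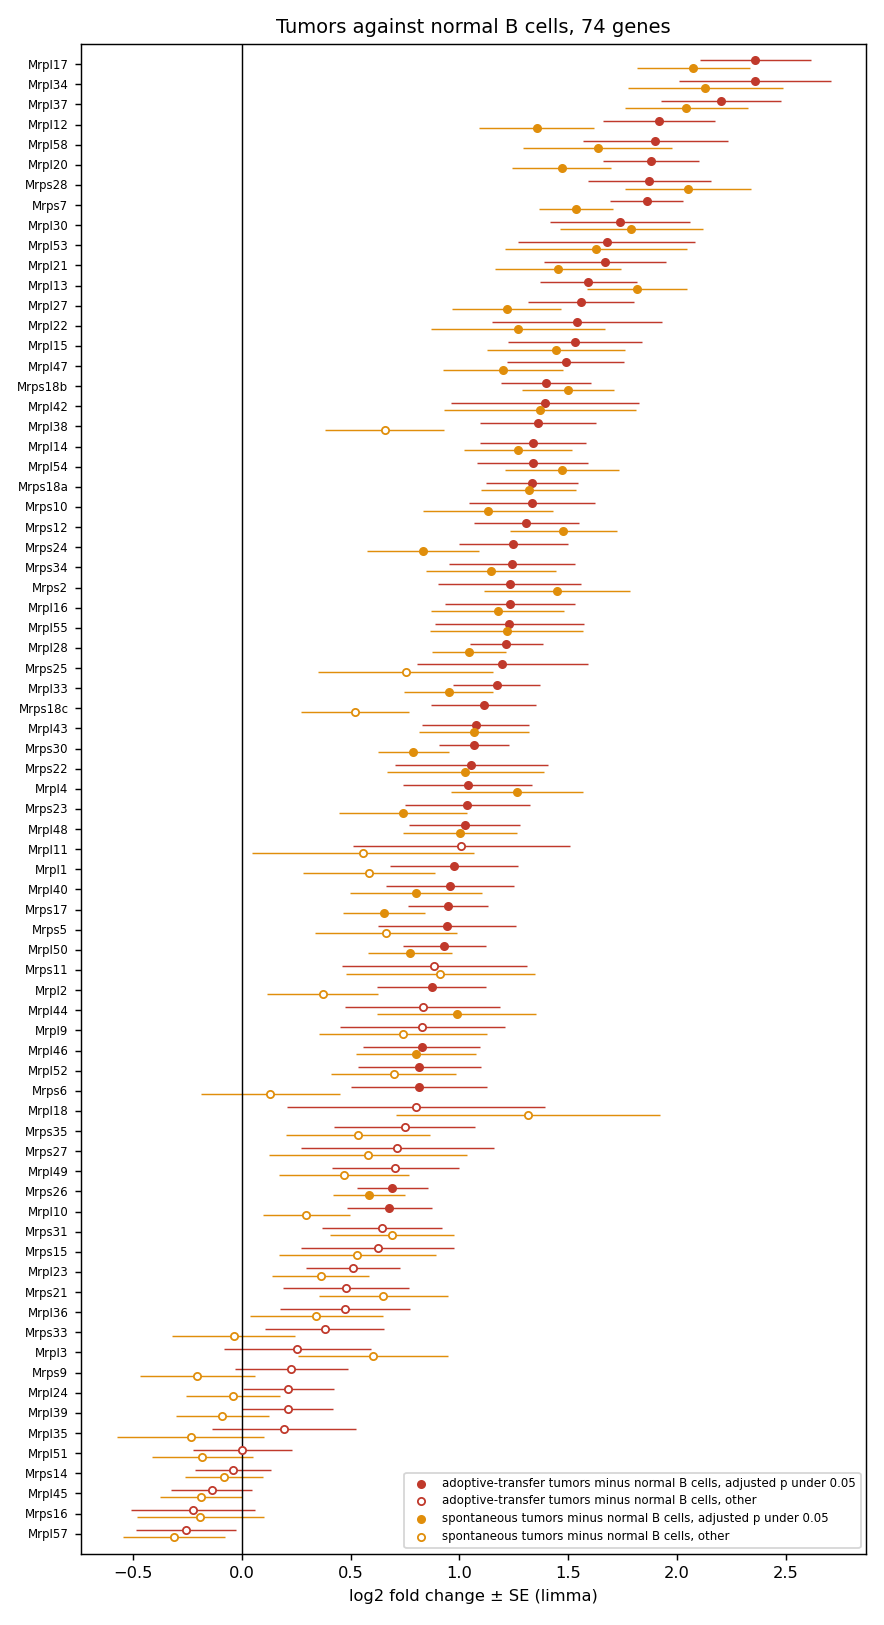
Log2 fold change of each of the 74 genes in adoptive-transfer tumors (n = 14, red) and spontaneous tumors (n = 11, orange) against normal B cells (n = 3), sorted by the adoptive-transfer value; bars are limma standard errors and filled points have an adjusted p under 0.05. The 50 and 42 filled points all lie to the right of 0. Both comparisons use the same 3 normal samples.

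Large subunit proteins with a bacterial homologue form the rRNA-binding core, the peptidyl transferase surroundings and the exit tunnel. Of these 29 genes 21 rose in adoptive-transfer tumors (median difference 1.23) and 18 rose in spontaneous tumors (median 1.22). This and the later counts by subunit and homologue are to be read against all 74 genes, of which 67.6% and 56.8% rose. Of all tested genes 19.8% and 18.5% did so. Mrpl17, whose bacterial counterpart lies beside the tunnel exit, had the highest difference. Its level was 10.43 at the lowest, 12.00 at the median and 12.53 at the highest adoptive-transfer tumor, 11.15, 11.76 and 11.98 at the same points of the spontaneous tumors, and 9.56, 9.62 and 9.65 in the 3 normal samples. The difference from normal B cells was 2.36 ± 0.25 (SE, 5.13-fold, adjusted p = 2.1e-08) in adoptive-transfer tumors and 2.07 ± 0.26 (4.21-fold, adjusted p = 2.77e-07) in spontaneous tumors. No tumor overlapped the normal samples, and the lowest adoptive-transfer value was tumor 5. Levels of other genes are likewise the lowest, median and highest array of each kind of tumor and the 3 arrays of normal B cells.

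Mrpl34, a small basic rRNA-binding protein, was at 8.01, 10.45 and 11.00 (lowest, median, highest) in adoptive-transfer tumors, 9.26, 10.12 and 10.47 in the spontaneous tumors, and 7.87, 7.94 and 8.09 in normal B cells. It rose by 2.36 ± 0.35 (adjusted p = 3.64e-06) in adoptive-transfer and by 2.13 ± 0.36 (adjusted p = 2.21e-05) in spontaneous tumors. Tumor 5 lay within the normal range and the next lowest adoptive-transfer value was 10.09. Mrpl20, whose bacterial counterpart acts early in large subunit assembly, was at 8.98, 10.08 and 10.58 in adoptive-transfer tumors, 9.21, 9.64 and 9.99 in the spontaneous tumors, and 8.09, 8.16 and 8.22 in normal B cells. Its difference was 1.88 ± 0.22 (adjusted p = 9.43e-08) in adoptive-transfer and 1.47 ± 0.23 (adjusted p = 6.88e-06) in spontaneous tumors, with no overlap in either.

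Mrpl13, a core large subunit protein, was at 10.50, 11.45 and 11.95 in adoptive-transfer tumors, 11.17, 11.72 and 12.16 in the spontaneous tumors, and 9.69, 9.87 and 10.03 in normal B cells. The difference was 1.59 ± 0.23 (adjusted p = 1.87e-06) and 1.82 ± 0.23 (adjusted p = 3.28e-07) in the 2 kinds of tumor in that order, and no tumor overlapped the normal samples. Mrpl30, another core protein, was at 8.77, 10.96 and 11.38 in adoptive-transfer tumors, 10.26, 10.67 and 11.36 in the spontaneous tumors, and 8.75, 8.94 and 9.33 in normal B cells, with tumor 5 alone inside the normal range. It rose by 1.74 ± 0.32 (adjusted p = 8.43e-05) and 1.79 ± 0.33 (adjusted p = 7.83e-05). Other genes of the core rose by smaller amounts in both kinds of tumor, among them Mrpl21 (1.67 and 1.45), Mrpl27, next to the peptidyl transferase centre (1.56 and 1.22), Mrpl22, which lines the exit tunnel (1.54 and 1.27), and Mrpl16, near the tRNA sites (1.23 and 1.18).

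The stalk of the large subunit recruits translation factors. It is built on Mrpl11 and Mrpl10 and carries copies of Mrpl12, which has also been described as a partner of the mitochondrial RNA polymerase. Mrpl12 was at 10.12, 11.57 and 12.34 in adoptive-transfer tumors, 10.53, 10.89 and 11.46 in the spontaneous tumors, and 9.44, 9.58 and 9.84 in normal B cells. It rose by 1.92 ± 0.26 (adjusted p = 8.03e-07) in adoptive-transfer and by 1.35 ± 0.26 (adjusted p = 0.000146) in spontaneous tumors, and no tumor overlapped the normal samples. Mrpl10 was at 10.29, 10.76 and 11.29 in adoptive-transfer tumors, 9.95, 10.42 and 10.98 in the spontaneous tumors, and 10.00, 10.11 and 10.13 in normal B cells.

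Mrpl10 rose by 0.68 ± 0.20 (adjusted p = 0.00674) in adoptive-transfer tumors and differed by 0.30 ± 0.20 (adjusted p = 0.269) in spontaneous tumors. The adoptive-transfer call was lost with median scaling and with the Eif2s3y covariate. Mrpl11 showed the effect of a single array. Its values were 5.77, 9.58 and 10.00 in adoptive-transfer tumors, 8.02, 8.90 and 9.59 in the spontaneous tumors, and 8.05, 8.38 and 8.40 in normal B cells. The lowest value was tumor 5 and the next was 9.06, above all normal samples. Its difference of 1.01 ± 0.50 was not called (adjusted p = 0.117), and without tumor 5 it was 1.28 and was called.

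Among core proteins without a call, Mrpl3, at the peptidyl transferase centre, was at 7.86, 9.86 and 10.15 in adoptive-transfer tumors, 9.39, 9.87 and 10.59 in the spontaneous tumors, and 9.26, 9.29 and 9.35 in normal B cells. All 11 spontaneous and 10 of the 14 adoptive-transfer tumors lay above the normal samples, and the differences of 0.26 ± 0.34 (adjusted p = 0.602) and 0.60 ± 0.34 (adjusted p = 0.183) were not called. Mrpl35 was dim, detected on 9 of 14 adoptive-transfer, 5 of 11 spontaneous and 2 of 3 normal arrays. Its levels of 4.63, 5.57 and 6.63, 4.70, 5.11 and 6.14, and 4.94, 5.50 and 5.74 overlapped, with differences of 0.19 ± 0.33 (adjusted p = 0.697) and -0.23 ± 0.34 (adjusted p = 0.645).

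Of the 19 large subunit proteins without a bacterial homologue, which coat the rRNA core in mammalian mitochondria, 13 rose in adoptive-transfer tumors (median difference 0.96) and 12 in spontaneous tumors (median 0.80). Mrpl37, one of these added proteins, was at 10.59, 11.03 and 12.06 in adoptive-transfer tumors, 10.22, 11.07 and 11.56 in the spontaneous tumors, and 8.77, 8.99 and 9.18 in normal B cells. It rose by 2.20 ± 0.28 (4.60-fold, adjusted p = 2.76e-07) and by 2.04 ± 0.28 (4.12-fold, adjusted p = 1.36e-06), and the groups did not overlap. Mrpl53 rose by 1.68 and 1.63, and Mrpl54 by 1.34 and 1.47.

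Mrpl58, also known as Ict1, is a peptidyl-tRNA hydrolase that frees stalled mitochondrial ribosomes and is built into the large subunit. Its level was 6.08, 8.13 and 8.74 in adoptive-transfer tumors, 7.09, 7.76 and 8.54 in the spontaneous tumors, and 6.00, 6.13 and 6.38 in normal B cells. Tumor 5 lay within the normal range and the other 24 tumors lay above it. The difference was 1.90 ± 0.34 (3.73-fold, adjusted p = 4.37e-05) in adoptive-transfer and 1.64 ± 0.34 (3.11-fold, adjusted p = 0.000363) in spontaneous tumors.

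Mrpl44, which has the fold of a ribonuclease III, was at 6.45, 8.25 and 9.03 in adoptive-transfer tumors, 7.90, 8.23 and 8.66 in the spontaneous tumors, and 7.22, 7.22 and 7.29 in normal B cells. It was called in spontaneous tumors (0.99 ± 0.37, adjusted p = 0.034) and not in adoptive-transfer tumors (0.83 ± 0.36, adjusted p = 0.0695), where 2 of 14 values lay below the normal samples. The 2 kinds of tumor differed by -0.16 ± 0.23 (adjusted p = 0.774), and the spontaneous call was lost with median scaling and when any 1 normal sample was left out.

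A group of large subunit genes without a call was dim throughout. Mrpl57, detected on 7 of 14 adoptive-transfer, 6 of 11 spontaneous and 2 of 3 normal arrays, was at 4.72, 5.13 and 5.81, at 4.59, 5.10 and 5.61, and at 5.12, 5.44 and 5.79 in that order. Its differences of -0.25 ± 0.23 (adjusted p = 0.424) and -0.31 ± 0.24 (adjusted p = 0.335) were the lowest of the 74 in both comparisons. Mrpl45, which lies at the exit tunnel and helps to hold the ribosome at the inner membrane, was detected on 1 array of each group. Its levels were 4.45, 4.86 and 5.37 in adoptive-transfer tumors, 4.32, 4.75 and 5.42 in the spontaneous tumors, and 4.76, 5.02 and 5.17 in normal B cells, and its differences were -0.14 ± 0.19 (adjusted p = 0.614) and -0.19 ± 0.19 (adjusted p = 0.493). These probes were near background, which limits any difference they can show.

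Mrpl51 was detected on 10, 8 and 3 arrays of the 14 adoptive-transfer, 11 spontaneous and 3 normal ones, at 4.69, 5.59 and 5.98, at 4.68, 5.26 and 5.75, and at 5.26, 5.35 and 5.67. Its differences were 0.00 ± 0.23 (adjusted p = 0.996) and -0.18 ± 0.23 (adjusted p = 0.60), and their signs turned under several settings. Mrpl39 was detected on 3 adoptive-transfer arrays and on 0 spontaneous and 0 normal arrays. Its measured levels were 4.55, 4.85 and 5.83 in adoptive-transfer tumors, 4.41, 4.58 and 4.94 in the spontaneous tumors, and 4.57, 4.60 and 4.92 in normal B cells, and no bound above 1-fold could be given.

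Small subunit proteins bind mRNA and read the codon. Of the 17 with a bacterial homologue, 11 rose in adoptive-transfer tumors (median difference 0.95) and 8 in spontaneous tumors (median 0.66). Mrps7, which organises the head of the small subunit, had the lowest adjusted p of the 74 genes in both comparisons. It was at 10.25, 10.57 and 11.30 in adoptive-transfer tumors, 10.04, 10.24 and 10.46 in the spontaneous tumors, and 8.58, 8.70 and 8.90 in normal B cells. The difference was 1.86 ± 0.17 (3.63-fold, adjusted p = 5.79e-10) in adoptive-transfer and 1.54 ± 0.17 (2.90-fold, adjusted p = 3.21e-08) in spontaneous tumors. Tumor 5, at 10.42, lay with the other tumors for this gene.

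Mrps28 was at 8.03, 9.92 and 10.51 in adoptive-transfer tumors, 9.73, 10.09 and 10.21 in the spontaneous tumors, and 7.83, 8.02 and 8.03 in normal B cells. It rose by 1.87 ± 0.28 (adjusted p = 5.37e-06) and by 2.05 ± 0.29 (adjusted p = 1.95e-06), and tumor 5 alone was as low as the normal samples. Mrps2 was at 5.07, 7.21 and 7.83 in adoptive-transfer tumors, 6.84, 7.34 and 7.87 in the spontaneous tumors, and 5.38, 5.89 and 6.30 in normal B cells. It rose by 1.23 ± 0.33 (adjusted p = 0.00362) and by 1.45 ± 0.34 (adjusted p = 0.00103), and the adoptive-transfer call was lost without normal sample 3 (0.99). Mrps12, a decoding centre protein, rose by 1.31 and 1.48, and Mrps10, in the head, by 1.33 and 1.13.

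The bacterial protein S18 has 3 mammalian descendants. Mrps18a sits in the large subunit, and Mrps18b and Mrps18c occupy different places in the small subunit. Mrps18a was at 8.20, 9.36 and 9.82 in adoptive-transfer tumors, 8.86, 9.23 and 9.62 in the spontaneous tumors, and 7.80, 7.93 and 8.14 in normal B cells. Its difference was 1.33 ± 0.21 (adjusted p = 1.11e-05) and 1.32 ± 0.22 (adjusted p = 1.79e-05). Mrps18b was at 9.70, 10.84 and 11.15, at 10.30, 10.90 and 11.09, and at 9.20, 9.38 and 9.48 in the same order of groups.

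Mrps18b rose by 1.40 ± 0.21 (adjusted p = 3.94e-06) and 1.50 ± 0.21 (adjusted p = 1.96e-06). For Mrps18a and Mrps18b every tumor of either kind lay above the normal samples. Mrps18c was at 9.30, 9.85 and 10.85 in adoptive-transfer tumors, 8.54, 9.48 and 9.78 in the spontaneous tumors, and 8.62, 8.81 and 8.87 in normal B cells. It rose by 1.11 ± 0.24 (adjusted p = 0.000507) in adoptive-transfer tumors, all above the normal samples, and differed by 0.52 ± 0.25 (adjusted p = 0.102) in spontaneous tumors, where 9 of 11 lay above them.

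Small subunit genes with a bacterial homologue and no call included well detected ones. Mrps16, detected on every array, was at 7.36, 8.99 and 9.97 in adoptive-transfer tumors, 8.33, 8.97 and 9.36 in the spontaneous tumors, and 8.89, 9.26 and 9.37 in normal B cells. The groups overlapped, and the differences were -0.22 ± 0.29 (adjusted p = 0.59) and -0.19 ± 0.29 (adjusted p = 0.666). Mrps9 was at 9.08, 9.68 and 10.21, at 8.27, 9.27 and 9.96, and at 9.34, 9.36 and 9.54, with differences of 0.23 ± 0.26 (adjusted p = 0.537) and -0.20 ± 0.26 (adjusted p = 0.603). Mrps14, whose bacterial counterpart lies in the head, was detected on 2 adoptive-transfer, 0 spontaneous and 1 normal array and had measured levels of 4.52, 4.83 and 5.46, of 4.52, 4.85 and 5.04, and of 4.68, 4.71 and 5.35. It had differences of -0.04 ± 0.17 (adjusted p = 0.889) and -0.08 ± 0.18 (adjusted p = 0.773).

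Of the 9 small subunit proteins without a bacterial homologue, 5 rose in adoptive-transfer tumors (median difference 0.75, and 8 rose without tumor 5) and 4 in spontaneous tumors (median 0.69). Mrps34 was at 10.32, 10.67 and 12.82 in adoptive-transfer tumors, 10.37, 10.81 and 10.99 in the spontaneous tumors, and 9.49, 9.68 and 9.73 in normal B cells, without overlap. It rose by 1.24 ± 0.29 (adjusted p = 0.00114) and 1.15 ± 0.30 (adjusted p = 0.00299). Mrps22 was at 7.43, 8.93 and 9.73, at 8.20, 8.80 and 9.41, and at 7.77, 7.77 and 7.79, and rose by 1.06 ± 0.35 (adjusted p = 0.0187) and 1.03 ± 0.36 (adjusted p = 0.0252).

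Mrps23 was at 8.12, 10.06 and 10.58 in adoptive-transfer tumors, 9.37, 9.58 and 9.95 in the spontaneous tumors, and 8.86, 8.86 and 8.92 in normal B cells. It rose by 1.04 ± 0.29 (adjusted p = 0.00498) and 0.74 ± 0.29 (adjusted p = 0.0477), and tumor 5 alone lay below the normal samples. The calls of Mrps22 in both comparisons were lost when any 1 normal sample was left out. That of Mrps23 in spontaneous tumors was lost in 19 of the 28 fits that left out 1 array, and all 4 calls of these genes were lost with median scaling. In humans, mutations in 11 of the described genes (Mrpl3, Mrpl12, Mrpl44, Mrps2, Mrps7, Mrps14, Mrps16, Mrps22, Mrps23, Mrps28 and Mrps34) cause combined deficiencies of oxidative phosphorylation. Of these 11, 7 rose in adoptive-transfer and 8 in spontaneous tumors. Over all 74 genes 67.6% and 56.8% rose, and over all tested genes 19.8% and 18.5%.

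**Figure D3:**
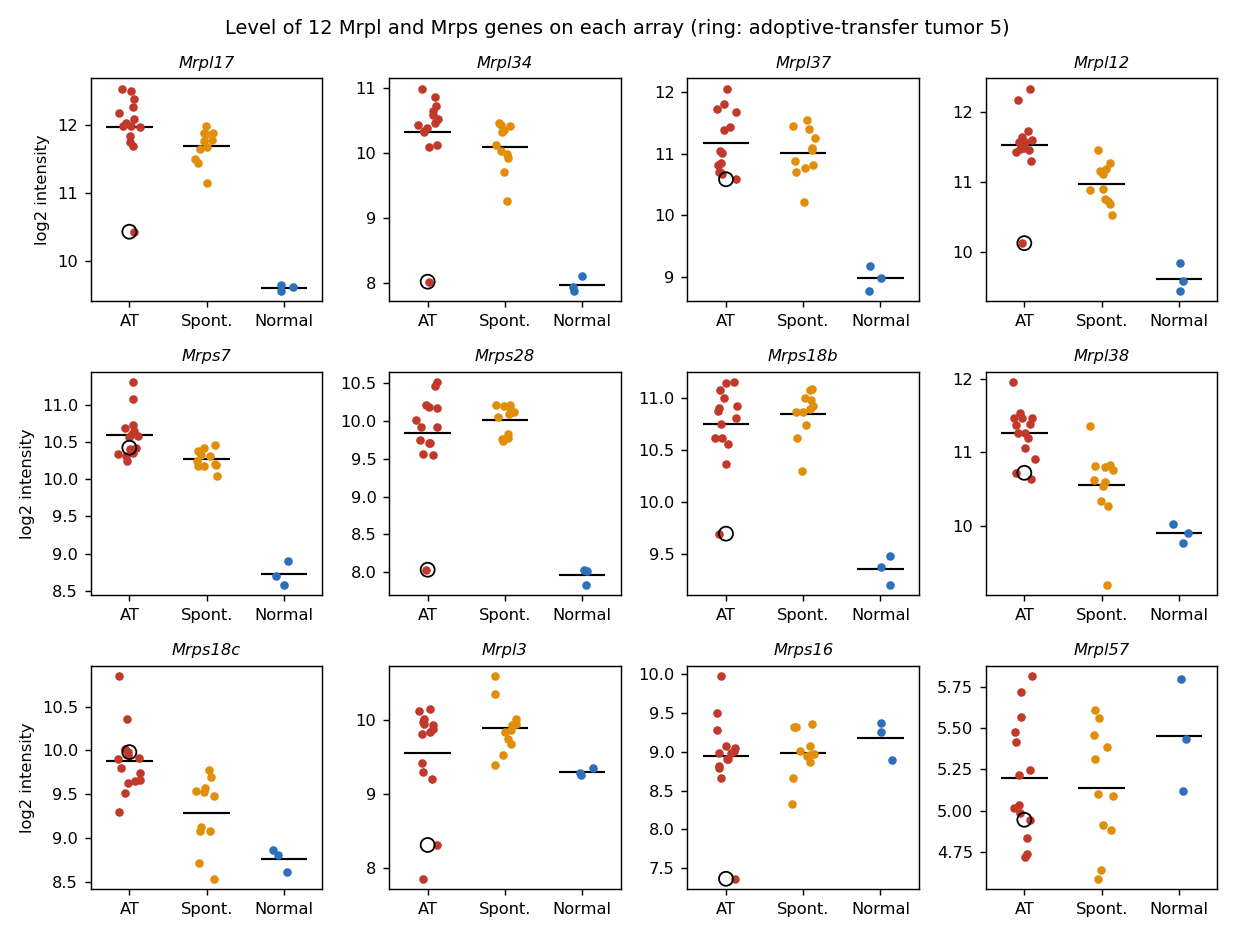
Log2 intensity of 12 genes on each array in adoptive-transfer (AT, n = 14), spontaneous (n = 11) and normal B cell (n = 3) samples; points are arrays, lines are group means and a ring marks adoptive-transfer tumor 5. Mrpl17, Mrpl37, Mrpl12 and Mrps7 show no overlap between tumors and normal samples, and Mrps16 and Mrpl57 overlap. The vertical axes differ between panels.

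Spontaneous tumors were compared with the same 3 normal samples. Of the 74 genes, 42 rose and 0 fell (limma, 11 tumors against 3 normal samples), where 36.4% of all tested genes were called, 18.5% higher and 17.9% lower. The fit shares a single estimate of spread over all arrays. When adoptive-transfer tumor 5 was left out, 47 rose and 0 fell, where 20.5% of all tested genes were called higher. Of the 42, 32 rose by at least 1 log2 unit, where 13.9% of all tested genes did so. The median difference was 0.82 over the 74 genes and 0.08 over all tested genes, and 64 of the 74 were positive, against 56.0% of all tested genes. In 50 of the 74 every spontaneous tumor lay above every normal sample, where 20.2% of all tested genes did so. With median scaling 19 genes were called higher and 0 lower with a median of 0.52, where 11.4% of all tested genes were called higher. The median of all genes was then -0.07, and 32.2% of all called genes were higher, against 50.8% here. With the Eif2s3y covariate 39 genes were called higher, where 15.7% of all tested genes were. Exocrine pancreas markers, with 7 of 8 called higher, averaged 4.92 to 14.54 in spontaneous tumors and 4.96 to 5.20 in normal B cells, where 6 of the 8 were detected on no array. Their part in the result was not tested.

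The spread within groups depended on tumor 5. The median SD of a gene was 0.56 log2 units over the 14 adoptive-transfer tumors and 0.35 without tumor 5, against 0.26 over the 11 spontaneous tumors and 0.13 over the 3 normal samples. The mean level over the 74 genes was 9.34 ± 0.39 (SD, n = 14) in adoptive-transfer tumors, or 9.44 ± 0.16 without tumor 5 (n = 13), against 9.19 ± 0.09 (n = 11) in spontaneous tumors and 8.31 ± 0.04 (n = 3) in normal B cells. Where a gene had several probes, their signs against normal B cells mostly matched and their calls did so less often. Of 27 genes with at least 2 detected probes, all probes had the same sign of difference in 27 for adoptive-transfer tumors and in 25 for spontaneous tumors. All probes were called higher in 12 and 9 of these genes, some in 9 and 6, and none in 6 and 12, and no probe was called lower. Between the 2 kinds of tumor, the probes had the same sign in 15 of the 27 genes, and some but not all were called higher in 1.

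Adoptive-transfer and spontaneous tumors were compared directly. Of the 74 genes, 2 were called higher and 0 lower in adoptive-transfer tumors, where 2.73% of all tested genes were called, 1.37% higher and 1.36% lower. At an unadjusted p under 0.05, 17 were higher (9.80% of all tested genes), and 30 passed in either direction without tumor 5. The share of all tested genes that passed without tumor 5 was not counted. In 0 of the 74 were the 2 kinds of tumor fully separated (0.00847% of all tested genes in each direction). Other cell types moved with this comparison: 6 of 8 exocrine pancreas markers were called lower in adoptive-transfer tumors (mean levels 4.86 to 8.89, against 4.92 to 14.54 in spontaneous tumors), as were 2 of 8 plasma cell markers (8.21 to 10.79, against 9.75 to 10.81). Their part in the result was not tested. The median difference was 0.15, against 0.03 over all tested genes. Mrpl38, a large subunit protein without a bacterial homologue, was at 10.64, 11.31 and 11.95 in adoptive-transfer tumors and at 9.20, 10.63 and 11.36 in spontaneous tumors, with 9.77, 9.91 and 10.03 in normal B cells. The ranges overlapped, 7 of 14 adoptive-transfer values lay above every spontaneous one, and the difference was 0.70 ± 0.17 (1.63-fold, adjusted p = 0.0226). A second, dimmer probe of Mrpl38 differed by 0.32 ± 0.12 and was not called (adjusted p = 0.159, over all detected probes). For Mrps18c, whose levels are given above, 8 of 14 adoptive-transfer tumors lay above all spontaneous tumors and the difference was 0.59 ± 0.15 (1.51-fold, adjusted p = 0.0317). Both calls were lost with median scaling and with the Eif2s3y covariate, and that of Mrps18c also when spontaneous tumor 2, 3, 4, 10 or 11 was left out.

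Below these came Mrps6, whose bacterial counterpart pairs with S18, at 6.69, 7.63 and 8.69 in adoptive-transfer tumors and 6.42, 7.08 and 7.41 in spontaneous tumors. Its difference was 0.68 ± 0.20 (adjusted p = 0.0536), and it was at 6.79, 6.99 and 7.00 in normal B cells. Mrpl12, given above, differed by 0.56 ± 0.16 (adjusted p = 0.0542), and 10 of 14 adoptive-transfer tumors lay above every spontaneous one. Mrpl2, a core protein of the peptidyl transferase region, was at 9.54, 9.84 and 10.48 in adoptive-transfer tumors and 8.08, 9.65 and 9.83 in spontaneous tumors, a difference of 0.50 ± 0.16 (adjusted p = 0.0802). Normal B cells had 8.89, 9.02 and 9.13. Mrpl11 differed by 0.45 ± 0.31 (adjusted p = 0.488).

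At the other end of this comparison, the differences were not called. Mrpl18, which binds 5S rRNA in bacteria, was at 4.63, 9.14 and 9.71 in adoptive-transfer tumors and 8.96, 9.15 and 9.41 in spontaneous tumors (difference -0.51 ± 0.38, adjusted p = 0.514). The lowest value was adoptive-transfer tumor 1, and without it the difference was -0.20. Normal B cells had 7.65, 7.73 and 8.21 for this gene. Mrpl4, of the exit tunnel, was at 7.19, 8.72 and 9.38 in adoptive-transfer tumors, 8.23, 9.11 and 9.38 in the spontaneous tumors, and 7.55, 7.62 and 7.66 in normal B cells (difference between tumors -0.23 ± 0.19, adjusted p = 0.568). The differences of Mrpl3, Mrpl13, Mrps2 and Mrps28 were -0.35 ± 0.21, -0.22 ± 0.14, -0.22 ± 0.21 and -0.18 ± 0.18, with adjusted p of 0.425, 0.441, 0.633 and 0.652. Without tumor 5 the differences of Mrpl4, Mrps2 and Mrps28 were -0.12, -0.06 and -0.04, and without tumor 1 that of Mrpl3 was -0.22.

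Adoptive-transfer tumor 5 bore on this comparison most. Without it 12 genes were called higher and 0 lower, where 3.04% of all tested genes were called higher, and the median was 0.23. The 12 were Mrpl11, Mrpl12, Mrpl17, Mrpl20, Mrpl38, Mrps6, Mrps17, Mrps18c, Mrps23, Mrps24, Mrps30 and Mrps33. Mrpl12 then differed by 0.67 ± 0.12 (adjusted p = 0.00265) and Mrps6 by 0.76 ± 0.18 (adjusted p = 0.018). The Eif2s3y covariate left 0 of the 74 called, with 6 at an unadjusted p under 0.05, and 1 of all 11804 tested genes called. The share of all tested genes at that unadjusted threshold was not counted. With it the median SE of the 74 genes rose from 0.18 to 0.26.

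The labelled age was set against level within each kind of tumor. In adoptive-transfer tumors it may count from transfer, so the kinds of tumor may not share a scale of age. In spontaneous tumors 0 of the 74 genes and 0 of all tested genes had a called slope in limma, and at an unadjusted p under 0.05 there were 4 higher and 3 lower with age, where 4.40% and 6.95% of all tested genes were. The slopes had a median of 0.00 log2 units per 10 days, and 42 of the 74 were positive, against 49.5% of all tested genes. Mrps12 had 0.06 ± 0.02 per 10 days, with an adjusted p of 0.266. In adoptive-transfer tumors 0 genes were called and 7 were higher and 0 lower with age at an unadjusted p under 0.05, where 4.70% and 4.57% of all tested genes were. The median slope was 0.11 per 10 days, 64 of the 74 were positive (48.1% of all tested genes), and the lowest adjusted p was 0.529. Single arrays and scaling moved these slopes. The median slope was 0.07 without tumor 5, aged 107 days, and 0.16 without tumor 14, aged 158 days, when 17 genes passed an unadjusted p under 0.05. Without tumor 11, 12 or 13, 1 gene did so, and with median scaling 25 did, with all 74 positive. The median slope with median scaling was 0.24, against 0.06 over all tested genes. How many of all tested genes passed in these fits was not counted, so these counts cannot be set against that share.

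The comparator families place these differences. In the 73 genes for nuclear-encoded subunits of oxidative phosphorylation, the complexes that mitochondrial translation completes, adoptive-transfer tumors had 47 higher and 0 lower (median difference 0.89), and spontaneous tumors had 39 higher and 0 lower (median 0.77). In the 55 cytosolic ribosomal proteins, which translate nuclear mRNAs, adoptive-transfer tumors had 7 higher and 1 lower (median 0.11), and spontaneous tumors 8 higher and 2 lower (median 0.05). Their probes were bright, with group means of 12.93, 12.88 and 12.64 in adoptive-transfer tumors, spontaneous tumors and normal B cells. Between the kinds of tumor 3 oxidative phosphorylation genes and 0 cytosolic ribosomal genes were called higher in adoptive-transfer tumors, and 0 of either lower. Without tumor 5 these counts were 16 of 73 and 3 of 55. Without tumor 5 the counts in adoptive-transfer tumors against normal B cells were 59 of 73 higher for oxidative phosphorylation and 15 higher and 1 lower of 55 for cytosolic ribosomal proteins.

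Mitochondrial ribosomal proteins that carry other names were measured for 4 genes. Of these, Dap3 (0.83), a GTP-binding small subunit protein, Ptcd3 (0.93) and Chchd1 (0.99) rose in adoptive-transfer tumors and Gadd45gip1 differed by 0.16 (adjusted p = 0.528). In spontaneous tumors 1 of the 4 rose. The smaller lists are to be read against all tested genes, of which adoptive-transfer tumors had 19.8% called higher and 16.7% lower, and spontaneous tumors 18.5% and 17.9%. Of 12 translation factors, adoptive-transfer tumors had 3 higher (25%, and 5 without tumor 5) and 1 lower. Those that rose were Tufm (0.76), which brings aminoacyl-tRNA to the ribosome, Tsfm (0.79), which recharges Tufm, and Pdf (1.02), which removes the formyl group from new chains. Gfm2, a factor of ribosome recycling, fell by 0.69. In spontaneous tumors 2 rose (16.7%, and 4 without tumor 5) and 1 fell. With all arrays, neither share of higher calls stood far from that of all genes.

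Of 19 genes for assembly of the ribosome and modification of its rRNA, adoptive-transfer tumors had 5 higher (26.3%) and 1 lower, and spontaneous tumors 4 higher (21.1%) and 1 lower, also near the share of all genes. Mrm3, an rRNA methyltransferase, rose by 1.83 ± 0.47 (adjusted p = 0.00262) in adoptive-transfer tumors, Mterf4 by 1.23 and Noa1, a GTPase of small subunit assembly, by 1.03. Nsun4, an rRNA methyltransferase that works with Mterf4, fell by 0.78. Of 13 mitochondrial aminoacyl-tRNA synthetases, adoptive-transfer tumors had 3 higher and 0 lower (Fars2 by 1.51, Vars2 by 1.31 and Lars2 by 0.66), and spontaneous tumors had 3 higher and 1 lower, a share of 23.1% higher in each kind of tumor. Of 11 genes for transcription and maintenance of mitochondrial DNA, 6 rose and 1 fell, and 5 rose and 2 fell, in the same order. Twnk, the helicase, rose by 1.58 ± 0.35 (adjusted p = 0.000589) in adoptive-transfer tumors, Slirp, which stabilises mitochondrial mRNAs, by 1.50 and the elongation factor Tefm by 1.22, while Polg, the DNA polymerase, fell by 0.94.

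Known upstream regulators were the last list. None of the 8 tested rose in either kind of tumor, and 3 fell in both. Esrra, a nuclear receptor that activates mitochondrial genes, was at 7.31, 7.75 and 9.61 in adoptive-transfer tumors, 6.98, 7.31 and 8.18 in the spontaneous tumors, and 8.61, 8.77 and 8.89 in normal B cells. It fell by 0.86 ± 0.30 (adjusted p = 0.0257) and by 1.28 ± 0.31 (adjusted p = 0.00155). The coactivator Ppargc1b fell by 0.98 ± 0.28 (adjusted p = 0.00658) and 1.22 ± 0.29 (adjusted p = 0.00118). Its relative Ppargc1a was called lower in both, but its probe was detected on 1 of 14 adoptive-transfer, 0 of 11 spontaneous and 3 of 3 normal arrays, so the size is not given for adoptive-transfer tumors. In spontaneous tumors, where it was not well above background, it was at least 1.15-fold lower (adjusted p = 0.000312, measured means 4.62 in spontaneous tumors and 5.37 in normal B cells), with the dimmest detected probe of each array, or the probe's own value where higher, as the floor.

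Myc, the oncogene inserted in these mice, was at 5.46, 8.74 and 9.47 in adoptive-transfer tumors, 8.26, 9.30 and 10.35 in the spontaneous tumors, and 7.84, 8.11 and 8.26 in normal B cells. Its differences of 0.46 ± 0.53 (adjusted p = 0.545) and 1.25 ± 0.54 (adjusted p = 0.0704) were not called, although all 11 spontaneous tumors lay above the normal samples. Whether its probe reads the inserted gene is not stated in the sources used here. For Nrf1, Gabpa, Gabpb1 and Pprc1 the differences were -0.23, -0.00, -0.11 and 0.44 in adoptive-transfer tumors and -0.23, -0.24, 0.11 and 0.55 in spontaneous tumors, and none was called.

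**Figure D4:**
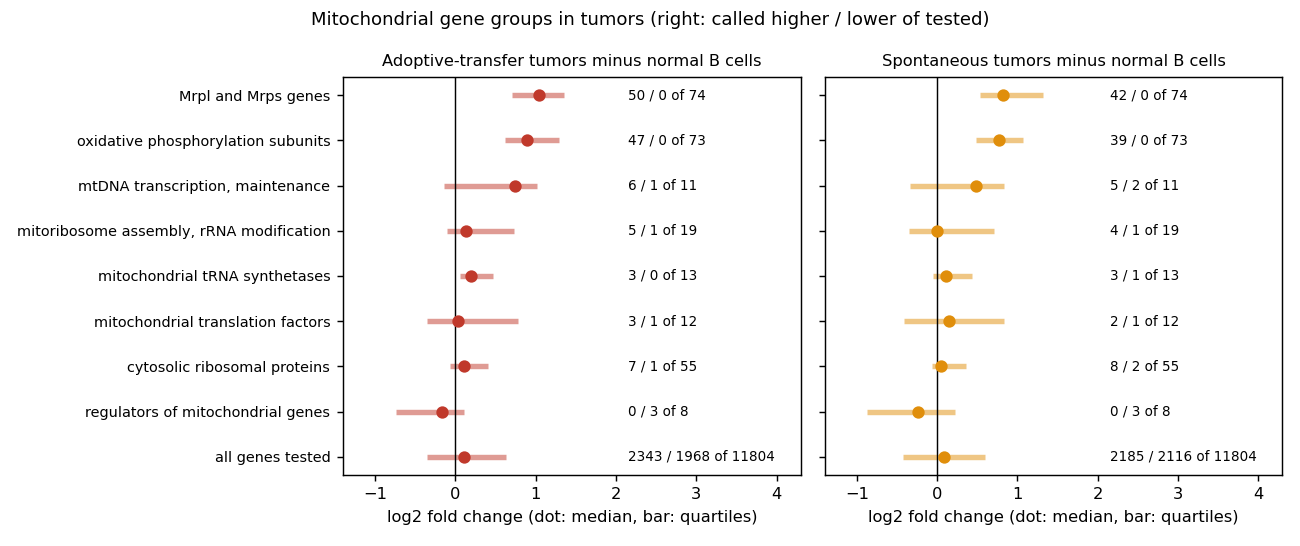
Median (dot) and quartiles (bar) of the log2 fold change in mitochondrial gene groups, cytosolic ribosomal proteins and all tested genes, for adoptive-transfer tumors (left, n = 14) and spontaneous tumors (right, n = 11) against normal B cells (n = 3); figures at the right of each panel are genes called higher, genes called lower and genes tested. The Mrpl and Mrps genes (medians 1.04 and 0.82) and the oxidative phosphorylation subunits (0.89 and 0.77) lie to the right of cytosolic ribosomal proteins (0.11 and 0.05).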

How the data were processed

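The authors deposited linear probe intensity values, without background subtraction or normalisation between arrays, and a detection score per probe, per the file headers. The deposited detection score runs from 0 to 1, and 1 minus it was used as the detection p. The authors also deposited log2 values with the same median of 7.15 in every column, whose ranks matched the intensities (lowest rank correlation 0.999996). The submitters' processing notes name Partek, with no version given.

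Intensities of 45281 probes were processed in R 4.3.3 with limma 3.58.1: normal-exponential background correction with negative controls inferred from the detection p, offset 16, quantile normalisation and log2. The platform annotation gave 1 symbol for 34885 probes, several for 18 and none for 10378, and 65 of the 19057 symbols were not found by ID in RefSeq. The brightest probe per gene was kept if its detection p was under 0.05 on at least 3 arrays. Group means were fitted in 1 limma model with eBayes over all 28 arrays, two-sided, with Benjamini-Hochberg adjustment over 11804 genes, and age slopes within each kind of tumor. The number of arrays limits the precision. The fit was tested on simulated data for adoptive-transfer tumors against normal B cells over 11804 genes. Of 50 genes changed by each size, 98.0% were called at 3 log2 units, 86.0% at 2, 46.0% at 1 and 2.00% at 0.5. The simulated noise was independent between genes, with 1 spread per gene for all groups. In the data the median SD over all tested genes was 0.50 in adoptive-transfer tumors, 0.32 in spontaneous tumors and 0.15 in normal B cells. The simulation also held no array apart like tumor 5, so these shares may not hold for the real arrays. Named with full values were, in each comparison, the 6 genes with the highest and 6 with the lowest difference, those detected on no array of a group, the Mrps18 and stalk genes and the human disease genes, with others by fold change only. Of the other lists, up to 4 called genes at each end and all regulators could be named. The members and lists, and the promoter motifs, were chosen with earlier results of these data known. Alternatives changed background, source table, scaling, filter, probe choice, array weights, a replicate block, Eif2s3y as covariate and single arrays; counts without adoptive-transfer tumor 5 for the lists, the subunit groups, the spread and non-overlap were added after seeing the data.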

Additional observations from a re-analysis of the deposited data

Results flagged for a closer look

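Of the 74 genes, 2 differed between adoptive-transfer and spontaneous tumors in the limma contrast of the 2 kinds of tumor. Mrpl38 was higher in adoptive-transfer tumors by 0.70 log2 units (adjusted p = 0.0226), against normal B cells it differed by 1.36 in adoptive-transfer tumors (14 of 14 above the normal samples) and by 0.66 in spontaneous tumors (10 of 11). Mrps18c was higher in adoptive-transfer tumors by 0.59 (adjusted p = 0.0317), with 1.11 (14 of 14 above) and 0.52 (9 of 11 above) against normal B cells. Tumor kind and tissue coincide, so they cannot be told apart. A second, dimmer probe of Mrpl38 differed between the kinds of tumor by 0.32 and was not called (adjusted p = 0.159). Dixon's criterion for a single outlying value was not applied gene by gene.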

How the results depend on the processing

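No gene of the 74 was called lower in any group comparison under any setting run. Called higher in adoptive-transfer tumors against normal B cells were 23 with median scaling of arrays (median 0.626) and 25 with Eif2s3y as covariate. Of all tested genes 11.9% and 8.55% were called higher in these fits, against 19.8% in the main fit. When each array was left out, 43 to 62 were called higher (median 0.9961 to 1.155), where 13.9% to 23.3% of all tested genes were. With array weights 65 were called higher, and 65 without adoptive-transfer tumors 1 and 5, where 34.8% and 25.6% of all tested genes were. For spontaneous tumors those 2 settings gave 62 and 53, where 33% and 23.1% of all tested genes were called higher. In spontaneous tumors 19 were called with median scaling (median 0.5225), where 11.4% of all tested genes were called higher. The median was 0.6404 without background correction, 0.6705 in the deposited log2 table and 0.9122 with detection on at least 14 arrays. Leaving out single arrays gave 34 to 47 calls (median 0.7891 to 0.857), where 13.5% to 20.5% of all tested genes were called higher. Between adoptive-transfer and spontaneous tumors 0 were called with median scaling and 0 with Eif2s3y as covariate. Array weights gave 19, and leaving out adoptive-transfer tumors 1 and 5 gave 19, where 4.61% and 3.79% of all tested genes were called higher. When each array was left out, 1 to 12 were called (median 0.1263 to 0.2286), where 0.779% to 3.04% of all tested genes were called higher. The 12 were without adoptive-transfer tumor 5, and the 1 without spontaneous tumor 2, 3, 4 or 10. Array weights gave 2 called age slopes in adoptive-transfer tumors, both higher with age, where 1.75% of all tested genes were called higher with age. Where the cause was not shown by the setting itself, the cause was not tested. The labels do not state that equal replicate numbers mark a shared animal or day, so these numbers cannot show whether samples were paired. Correlations of same-numbered deviations were -0.07 to -0.06 and -0.05 to 0.01 against normal B cells. They were -0.08 to 0.22 between tumors, 3 of 11 above 0.1. A block on these numbers has the same limit. It gave 46, 40 and 1 called higher, where 18.8%, 17.6% and 0.873% of all tested genes were. Between adoptive-transfer and spontaneous tumors the median difference over the 74 genes was 0.0796 with the block (47 positive), 0.293 with array weights and 0.281 without adoptive-transfer tumors 1 and 5, against 0.153 (59 positive).

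Signs of single genes were followed only for those named with full values in a comparison, and those that turned were without a call in that comparison. Signs of other genes turned too: between tumors 59 of the 74 were positive, against 47 with the replicate block and 51 with the Eif2s3y covariate. Mrpl51 in adoptive-transfer tumors was -0.000467 without background correction, -0.1891 with median scaling, -0.1914 with a replicate block and -0.1027 with the Eif2s3y covariate, and -0.08192 to 0.1244 when each array was left out; in spontaneous tumors it was 0.07738 with the mean of probes and 0.2019 with the most variable probe. Against normal B cells in adoptive-transfer tumors, Mrps14 was 0.01221 with array weights, 0.1059 with the Eif2s3y covariate and -0.1565 to 0.1767 when each array was left out, Mrpl45 0.3594 and Mrpl57 0.035 with that covariate, Mrpl3 -0.1197 with median scaling and Mrpl35 -0.03184 to 0.3672 when each array was left out. In spontaneous tumors Mrpl45 was 0.02268 with the covariate, Mrps14 -0.1976 to 0.1356 when each array was left out, and Mrpl39 0.05023 with a replicate block and -0.1529 to 0.02059 when each array was left out. Between tumors Mrps28 was 0.008914 with array weights and Mrpl13 0.1067 with the most variable probe. Probes near background limit Mrpl35, Mrpl39, Mrpl45, Mrpl51, Mrpl57 and Mrps14.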
